A study of Mus musculus with 8 samples.

Results

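The TAM receptors Axl, Mertk and Tyro3, their ligands Gas6 and Pros1, the integrin bridge Mfge8 with the integrin chains Itgav and Itgb5, and the engulfment receptor Lrp1 were followed in mouse retina. They are 9 genes, taken by symbol from a table of 25477 genes, and each symbol matched 1 row. The libraries are polyadenylated RNA of retina from mice with choroidal neovascularization (CNV), the growth of choroidal vessels beneath the retina. The groups are 4 libraries of genotype PD-L1 knockout (titles KO-CNV, called knockout 1 to 4) and 4 of genotype control (titles WT-CNV, called control 1 to 4). All 8 share the CNV condition. No library without CNV was analysed here. The sources used here do not give the strain, age or sex of the mice, the knockout allele, how and when CNV was induced, or whether animals were pooled. Nothing in them says that the libraries are separate animals, so a p-value measures the spread between these libraries, which may be technical.

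TAM receptors are tyrosine kinases that recognize dying cells and shed membrane through bridging proteins, which hold the receptor at one end and exposed phosphatidylserine at the other. In the eye the pigment epithelium uses MerTK, together with the integrin of alpha v and beta 5 chains, to bind and take up spent photoreceptor outer segments every day. Loss of MerTK causes photoreceptor degeneration. Microglia and Müller glia also carry TAM receptors, and in macrophages these receptors restrain cytokine and interferon signalling.

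Of the 9 genes, Axl and Pros1 rose in the PD-L1 knockout and none fell (edgeR, adjusted p under 0.05 over 16861 genes tested). Over all genes tested, 1.2% were called higher and 1.35% lower. All 9 passed the filter on low counts, and all 9 had a log2 fold change above 0, as did 49.8% of all genes tested, though the sign of Tyro3 turned under other scalings. At an unadjusted p under 0.05, 6 of the 9 were higher (all but Tyro3, Gas6 and Lrp1) and 0 lower, beside 10.5% higher and 10.8% lower over all genes tested. Levels of 3 of the 9, Axl, Pros1 and Itgb5, lay wholly above the controls in the 4 knockouts, which held for 5.19% of all genes tested. The median log2 fold change of the 9 was 0.38, beside -0.0011 over all genes tested. The 9 were chosen with earlier results of these data known, so these shares are no test of them as a set. In whole retina, a change in the number of cells of a type and a change in RNA per cell cannot be told apart.

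The promoter windows of Axl and Pros1 are shown because these are the receptor and the ligand that rose. Each spans 250 bases before and 50 bases after a RefSeq start site on GRCm38.p6, the mm10 assembly, read along the gene's own strand. Capitals mark GC boxes, GGGCGG on either strand, and in Pros1 also a STAT palindrome, TTCNNNGAA, that shares no base with a GC box. The Axl window is chr7:25788684-25788983, minus strand, and the Pros1 window is chr16:62854057-62854356, plus strand. The Axl start site lies inside the annotated gene, which reaches to 25788924, so part of the 250 bases before it is gene sequence. The Pros1 start site is the first base of the annotated gene, 62854307.
Axl: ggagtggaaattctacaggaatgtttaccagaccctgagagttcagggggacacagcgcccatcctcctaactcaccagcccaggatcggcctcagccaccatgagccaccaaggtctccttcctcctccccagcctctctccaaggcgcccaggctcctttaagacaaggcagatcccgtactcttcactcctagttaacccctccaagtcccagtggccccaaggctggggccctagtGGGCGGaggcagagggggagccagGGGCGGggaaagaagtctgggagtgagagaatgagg
Pros1: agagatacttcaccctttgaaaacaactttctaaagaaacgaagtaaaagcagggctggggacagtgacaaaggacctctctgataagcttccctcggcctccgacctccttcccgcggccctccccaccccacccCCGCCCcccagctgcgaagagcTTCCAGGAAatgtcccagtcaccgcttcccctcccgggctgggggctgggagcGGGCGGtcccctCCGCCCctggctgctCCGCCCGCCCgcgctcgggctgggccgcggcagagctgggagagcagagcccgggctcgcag

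Axl held 2 GC boxes, beginning 10 bases before and at base 15 after the start site. Pros1 held 5, among them a pair of overlapping matches, and its STAT match began 92 bases before the start. A GC box was found in 9 of the 9 windows and in 35.7% of all 32851 promoter windows. Those windows were not limited to genes tested here, so the shares are not those of genes expressed in retina. The STAT palindrome was found in 2 of the 9, Pros1 and Lrp1, and in 8.3% of all windows. None of the 9 windows held the interferon response core (a pair of GAAA repeats 2 bases apart), the AP-1 site TGANTCA or the E-box CACGTG, which were found in 3.44%, 7.81% and 7.15% of all windows. Of the motifs searched, the Axl window held only the GC box, which the Tyro3 window also held. The part of any motif in the changes was not tested.

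Library totals ran from 31743404 to 36438248 counts. Cd274, the gene of PD-L1, held 9 to 15 counts in the knockouts and 117 to 165 in the controls (log2 fold change -3.73, edgeR adjusted p = 1.57e-05). Levels within a gene are in CPM, the count relative to the library total after TMM scaling between libraries. Rod genes summed to 44440 CPM or more in every library. Lens genes summed to 2808 CPM in knockout 3, 6651 CPM in control 2 and 1922 CPM in control 3, and to at most 51.4 CPM in the other 5 libraries. On the first principal component (31.6% of the variance) control 4 stood at -6.95, between the other controls (17.7 to 45.1) and the knockouts (-28.1 to -20.3).

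**Figure D1:**
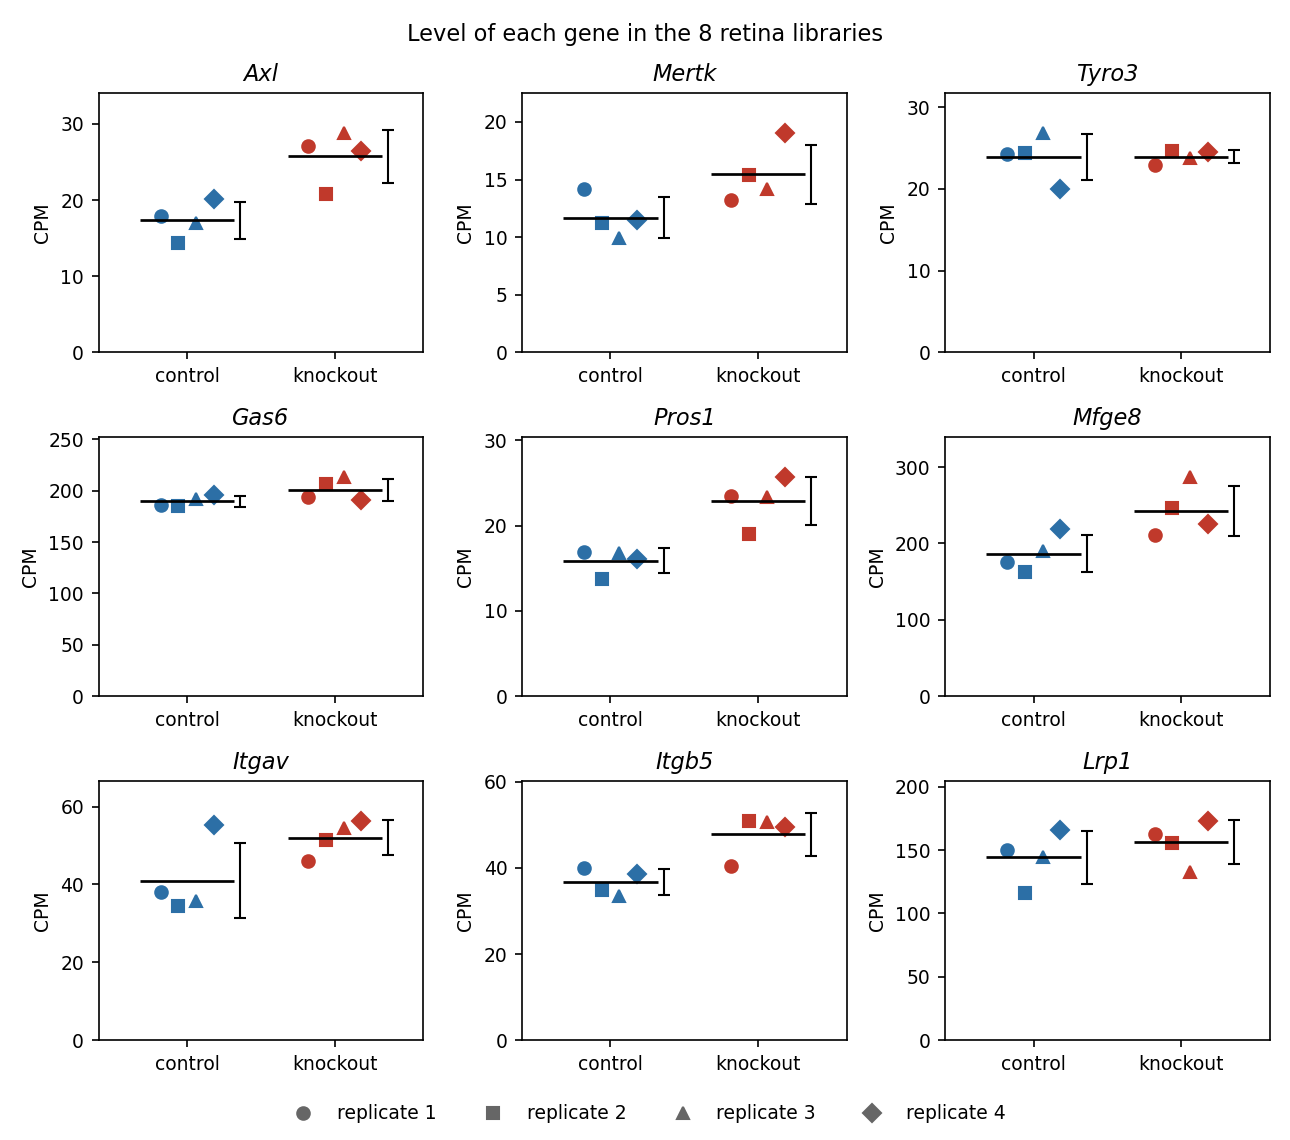
Level of each of the 9 genes in CPM (TMM-scaled, axis from 0) in the 4 control and 4 knockout libraries, with the replicate number as the symbol, the group mean as a line and the SD as a bar. The 4 knockouts lie above the 4 controls for Axl, Pros1 and Itgb5, and for Itgav control 4 lies among the knockouts.

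Axl is the TAM receptor that binds Gas6 most tightly and that inflammation raises in many myeloid and glial cells. The gene (Entrez 26362) lies on chromosome 7, 25756500 to 25788924 (GRCm38, as for all positions given), on the minus strand. Axl stood at 17.9, 14.4, 17.0 and 20.2 CPM in controls 1 to 4. The knockouts 1 to 4 stood at 27.1, 20.8, 28.8 and 26.4 CPM. Every knockout was above every control, though knockout 2, the lowest, exceeded control 4 only narrowly. The means were 25.8 ± 3.48 and 17.4 ± 2.42 CPM (SD, n = 4 each), a rise of 1.48-fold with a 95% interval of 1.22 to 1.81 (log2 fold change 0.57, SE 0.13, edgeR adjusted p = 0.0442).

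Mertk, the receptor that clears outer segments in the pigment epithelium (Entrez 17289, chromosome 2, 128698915 to 128803162, plus strand), did not pass the test. It stood at 14.2, 11.3, 9.92 and 11.5 CPM in controls 1 to 4. The knockouts stood at 13.2, 15.4, 14.1 and 19.0 CPM. Control 1 lay above knockouts 1 and 3, so the groups overlapped. Mertk had a log2 fold change of 0.40 (SE 0.15, 95% interval 0.079 to 0.72, edgeR adjusted p = 0.153), an interval that still holds the size seen for Axl.

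Tyro3, the TAM receptor most abundant in neurons (Entrez 22174, chromosome 2, 119797740 to 119818104, plus strand), had nearly equal group means. The controls stood at 24.3, 24.4, 26.8 and 20.04 CPM and the knockouts at 22.9, 24.6, 23.7 and 24.6 CPM. All 4 knockouts lay within the range of the controls. Tyro3 had a log2 fold change of 0.0022 (SE 0.11, 95% interval -0.23 to 0.23, edgeR adjusted p = 0.993). Its sign turned under RLE scaling (-0.0036), so it has no direction here.

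Levels of different genes can be compared only per length, in FPKM, the authors' counts scaled for gene length and library total. In the controls Tyro3 led the receptors at 4.70 ± 0.555 FPKM, followed by Axl at 3.18 ± 0.458 and Mertk at 1.58 ± 0.253 FPKM (SD, n = 4). In the knockouts Axl reached 4.78 ± 0.652 FPKM, beside 4.78 ± 0.141 for Tyro3 and 2.11 ± 0.346 for Mertk. Axl and Tyro3 thus exchanged order in some knockout libraries, while Mertk was the lowest of the receptors in all 8. The FPKM of the 3 receptors summed to 8.85 to 10.1 in the controls and 10.8 to 12.4 in the knockouts, without overlap.

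**Figure D2:**
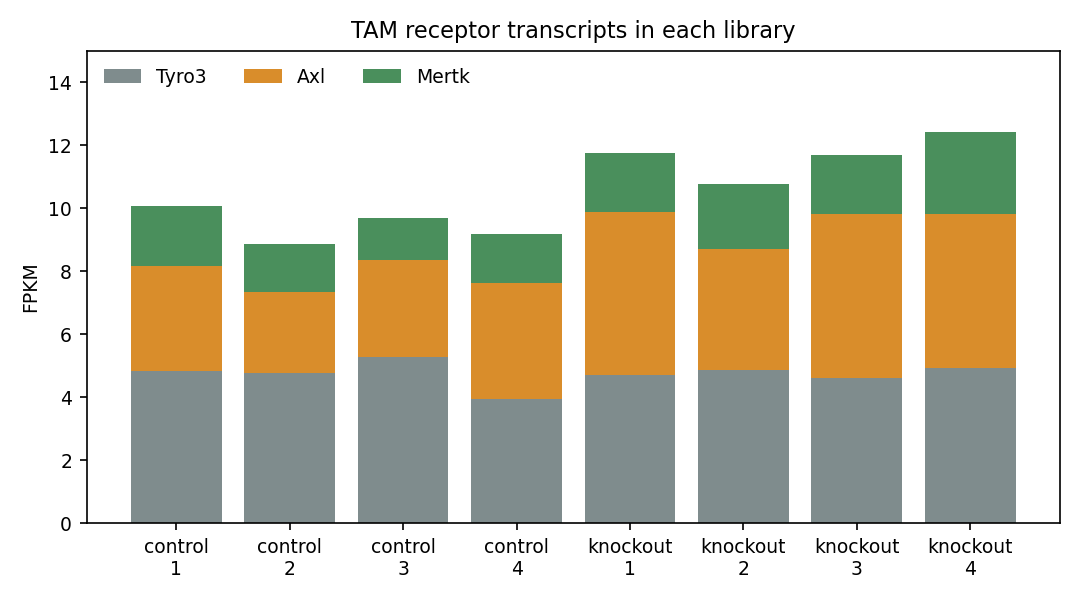
FPKM of Tyro3, Axl and Mertk stacked for each control and knockout library, on an axis from 0. The Tyro3 segment is of similar height in both groups, and the stacks are taller in the knockouts (10.8 to 12.4 FPKM) than in the controls (8.85 to 10.1 FPKM).

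Within a library, Axl made up 33.6 ± 4.67% of the receptor sum in the controls and 40.9 ± 4.26% in the knockouts (SD, n = 4 each). Tyro3 made up 49.8 ± 5.36% and 41.1 ± 2.77%, and Mertk 16.7 ± 2.22% and 18.1 ± 2.51%. The ranges of all 3 shares overlapped between groups: 29.4% to 40.2% against 35.5% to 44.5% for Axl and 42.9% to 54.3% against 39.4% to 45.2% for Tyro3. Whether the response of Axl differs from that of Mertk or Tyro3 was not tested.

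Of the TAM ligands, Pros1 rose and Gas6 did not pass. Pros1 encodes protein S, an anticoagulant plasma protein that bridges phosphatidylserine to Tyro3 and MerTK (Entrez 19128, chromosome 16, 62854307 to 62929346, plus strand). It stood at 16.9, 13.8, 16.8 and 16.1 CPM in controls 1 to 4. The knockouts 1 to 4 stood at 23.5, 19.0, 23.3 and 25.7 CPM. The groups did not overlap, and knockout 2 was again the lowest knockout and control 2 the lowest control, as for Axl. Pros1 rose 1.44-fold, with a 95% interval of 1.20 to 1.73 (22.9 ± 2.81 against 15.9 ± 1.45 CPM, SD, n = 4 each; log2 fold change 0.53, SE 0.12, edgeR adjusted p = 0.0414).

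Gas6 binds all TAM receptors and is the sole ligand of Axl among the pair (Entrez 14456, chromosome 8, 13465374 to 13494535, minus strand). It stood at 186, 185, 192 and 196 CPM in the controls and at 194, 206, 214 and 191 CPM in the knockouts. Its 8 values were close together and overlapped. For Gas6 the log2 fold change was 0.084 (SE 0.078, 95% interval -0.085 to 0.25, edgeR adjusted p = 0.556), an interval that ends below the value of Pros1. Per length Gas6 was far more abundant than Pros1: the ratio of Pros1 to Gas6 FPKM was 0.0579 to 0.0708 in the controls and 0.0717 to 0.105 in the knockouts. A 34-base stretch of Gas6 exons overlaps exons of Tmem255b on the other strand, a small part of its 2548 exonic bases.

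The calls of Axl and Pros1 lie near the threshold and depend on which libraries are included. Both held without knockout 2 and without control 4. Both ended without knockout 1, 3 or 4 or without control 1, 2 or 3 (edgeR adjusted p of 0.0764 to 0.156 for Axl and 0.0694 to 0.139 for Pros1), in the limma fits to FPKM (0.0558 to 0.0758), with the lens sum as a covariate (0.0658 for Axl and 0.0665 for Pros1), and without the 3 lens-rich libraries, where 3 knockouts met 2 controls and the log2 fold changes were 0.38 (0.628) and 0.47 (0.563).

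**Figure D3:**
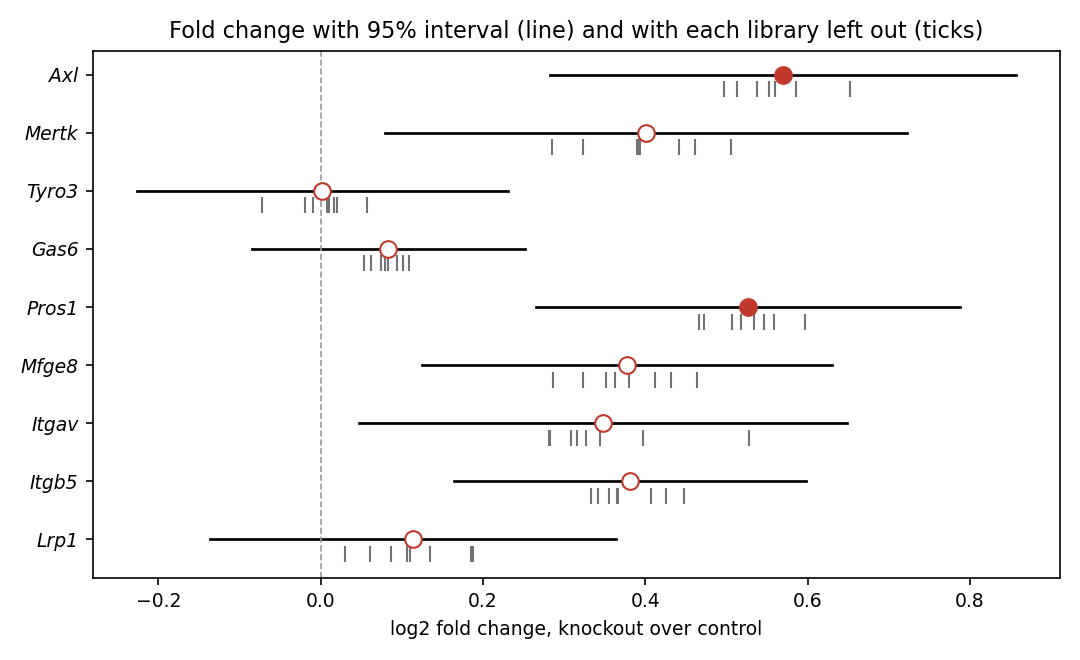
Log2 fold change of knockout over control for each gene (circle, filled where the edgeR adjusted p is under 0.05), its 95% interval (line) and the values with each of the 8 libraries left out (grey ticks). The intervals of Tyro3, Gas6 and Lrp1 cross 0, and the tick of Itgav at 0.53 is the fit without control 4.

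The bridge Mfge8 and the integrin chains Itgb5 and Itgav had fold changes of like size, and none of the 3 passed. Mfge8 encodes a secreted protein that ties phosphatidylserine to alpha v integrins (Entrez 17304, chromosome 7, 79133768 to 79149060, minus strand). It stood at 176, 162, 190 and 219 CPM in the controls and 211, 246, 287 and 226 CPM in the knockouts. Control 4 lay above knockout 1, and the other 3 controls lay below every knockout, while in FPKM, which lack the TMM scaling, the 4 knockouts (103 to 132) lay just above the 4 controls (74.9 to 102). Its log2 fold change was 0.38 (SE 0.12, 95% interval 0.13 to 0.63, edgeR adjusted p = 0.0984).

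Itgb5, the beta 5 chain that pairs with alpha v at the apical face of the pigment epithelium (Entrez 16419, chromosome 16, 33829665 to 33949338, plus strand), stood at 40.0, 34.9, 33.4 and 38.6 CPM in the controls. The knockouts stood at 40.4, 51.0, 50.6 and 49.4 CPM. The groups did not overlap, but knockout 1 was level with control 1 and stood apart from the other knockouts. The log2 fold change was 0.38 (SE 0.10, 95% interval 0.16 to 0.60, edgeR adjusted p = 0.0619).

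Itgav, the alpha v chain (Entrez 16410, chromosome 2, 83722303 to 83806917, plus strand), stood at 38.1, 34.5, 35.8 and 55.2 CPM in the controls and 45.9, 51.5, 54.4 and 56.4 CPM in the knockouts. Control 4 lay among the knockouts, and the other 3 controls lay below them. The log2 fold change was 0.35 (SE 0.14, 95% interval 0.047 to 0.65, edgeR adjusted p = 0.179). Exons of Itgav share 634 of 10744 bases with the transcript Gm13684 on the other strand, so some of its reads cannot be assigned to one of them if the counting ignored strand.

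The setting decided these calls. Without control 4 Mfge8, Itgav and Itgb5 passed beside Axl and Pros1 (edgeR adjusted p of 0.00957, 0.00214 and 0.0145), 5 of the 9 against 10.5% of all genes called higher in that fit, and DESeq2 on all libraries called Mfge8 and Itgb5 (adjusted p of 0.0382 and 0.0186; 3.67% of all genes called higher), as edgeR without knockout 1 called Itgb5 (0.0362; 0.812%).

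Lrp1, a large receptor of the LDL receptor family that takes up protease complexes, lipoproteins and calreticulin-bearing cells (Entrez 16971, chromosome 10, 127538157 to 127621148, minus strand), did not pass. It stood at 150, 116, 145 and 166 CPM in the controls and 163, 156, 133 and 173 CPM in the knockouts. The groups overlapped widely, with knockout 3 below 3 of the controls. Lrp1 had a log2 fold change of 0.11 (SE 0.12, 95% interval -0.14 to 0.36, edgeR adjusted p = 0.594).

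Per length the 9 genes covered a wide range. In the controls the order was Mfge8 (87.2 ± 11.4 FPKM), Gas6 (72.6 ± 2.06), Itgb5 (10.3 ± 0.934), Lrp1 (9.50 ± 1.41), Pros1 (4.73 ± 0.465), Tyro3 (4.70 ± 0.555), Itgav (3.99 ± 0.945), Axl (3.18 ± 0.458) and Mertk (1.58 ± 0.253), SD over 4 libraries. Gas6 and Itgb5, Lrp1 and Pros1, and Axl and Mertk had separate ranges in the controls, and the other neighbours overlapped. Both secreted bridges Mfge8 and Gas6 were thus well above every receptor. In the knockouts Mfge8 and Gas6, Itgb5 and Lrp1, and Pros1 and Tyro3 no longer overlapped.

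**Figure D4:**
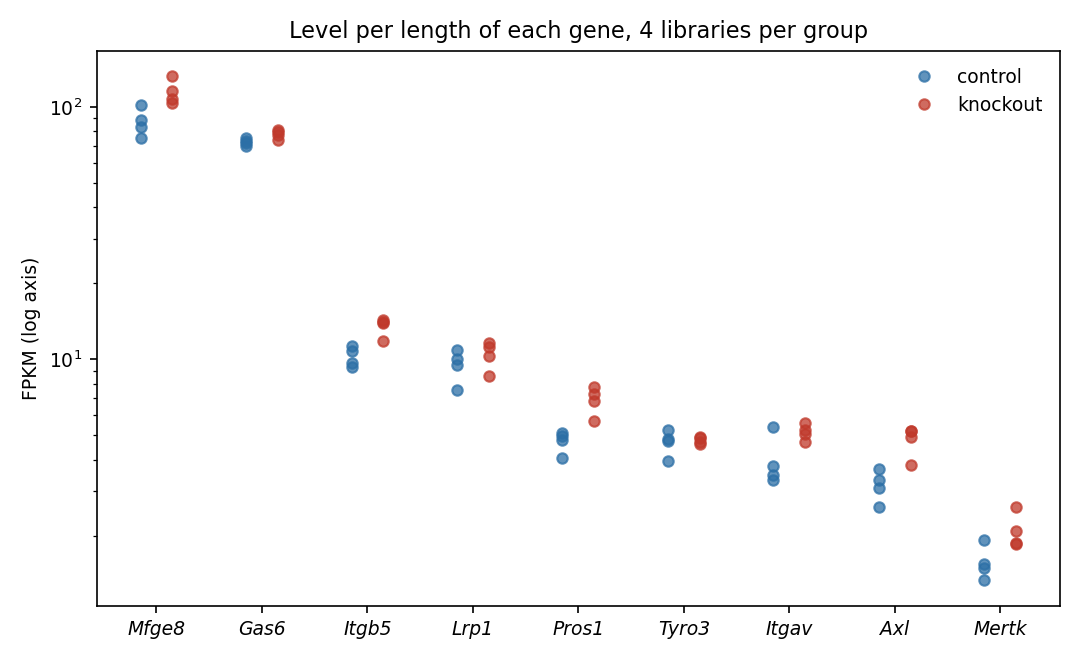
FPKM of the 9 genes on a log axis, ordered by their control mean, with the 4 control and 4 knockout libraries as points. Mfge8 and Gas6 lie between 70.1 and 132 FPKM, and Mertk between 1.33 and 2.60 FPKM.

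The other genes of engulfment came from 12 lists by role, which held 156 genes of the table apart from the 9, 143 of them tested. These lists were chosen with earlier results of these data known, so the shares given here are no test of engulfment genes. Of the 143 tested, 13 rose and none fell (edgeR), that is 9.09% higher beside 1.2% over all genes tested, with a median log2 fold change of 0.14. At an unadjusted p under 0.05, 36 were higher and 9 lower, beside 10.5% and 10.8% of all genes tested. DESeq2 called 21 higher and 3 lower, beside 3.67% and 4.59% of all genes. With limma-voom 13 were higher and none lower, beside 1.34% and 1.51%. The count was 1 without the 3 lens-rich libraries (0.0403% of all genes higher and 0.0461% lower), 5 without knockout 3, 7 without control 2 and 6 without control 3, all higher (0.361%, 0.468% and 0.397% of all genes higher), and 32 higher and 7 lower without control 4 (10.5% and 8.18%).

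Bridging and opsonizing proteins other than the 9 held 6 of the 13 calls. Of 11 tested, 6 rose (54.5%), none fell, and the median log2 fold change was 0.83. Over all genes tested, 1.2% were higher and 1.35% lower. C1qa, a chain of the complement protein that tags cells for removal, stood at 12.2 ± 3.12 CPM in the controls and 27.9 ± 3.59 CPM in the knockouts (SD, n = 4), a log2 fold change of 1.20 with an SE of 0.17 (adjusted p = 0.00349). C1qb rose by 0.94, C3, the central opsonin of complement, by 1.94, and Clu, the lipid-carrying chaperone clusterin, by 0.83 from 559 ± 112 to 997 ± 108 CPM. C3 lost the call without knockout 3 or control 2 or 3 (adjusted p up to 0.0692). Also higher were C1qc by 1.08 (edgeR adjusted p = 0.0230) and Thbs1 by 1.07 (0.0450), a pair chosen for naming once their values had been seen. The groups overlapped for Thbs1, with a knockout minimum of 9.27 CPM and a control maximum of 10.6 CPM.

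Among engulfment receptors outside the TAM group, 2 of 19 rose and none fell, with a median of 0.37. That is 10.5% higher, beside 1.2% higher and 1.35% lower over all genes tested. Itgam, the alpha chain of complement receptor 3, stood at 3.77 ± 0.668 CPM in the controls and 7.81 ± 1.06 CPM in the knockouts, a rise of 1.05 (SE 0.18, adjusted p = 0.0116). Fcgr1, a high-affinity receptor for antibody, stood at 1.17 ± 0.261 and 3.41 ± 1.12 CPM, a rise of 1.54 (SE 0.30, adjusted p = 0.0217). Itgam lost the call without knockout 3 (0.0518) and Fcgr1 without knockout 1, 3 or 4 or control 3 (adjusted p up to 0.0804). Timd4 and Havcr1, which bind phosphatidylserine directly, had at most 5 counts in any library and were not tested.

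Of 15 partners and relatives of Lrp1, 3 rose and none fell, with a median of 0.34. That is 20% higher, beside 1.2% higher and 1.35% lower over all genes tested. A2m, a protease trap cleared by Lrp1, stood at 15.8 ± 2.80 CPM in the controls and 40.3 ± 3.30 CPM in the knockouts, a rise of 1.35 (SE 0.13, adjusted p = 0.00015), and its call held in all 8 fits that left out a library. It was the 1 engulfment gene still called without the 3 lens-rich libraries (1.15, adjusted p = 0.0111). Plat, the plasminogen activator tPA and another Lrp1 ligand, rose by 0.75 (SE 0.16, adjusted p = 0.0274). Lrpap1, the chaperone that carries Lrp1 through the secretory pathway, rose by 0.34 (SE 0.081, adjusted p = 0.0477). The last 2 were fragile: Plat kept the call only without knockout 1 or control 4 among those 8 fits, and Lrpap1 only without control 4 (adjusted p up to 0.0844 and 0.155).

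Of 17 genes of LC3-associated phagocytosis and corpse digestion, 1 rose and none fell (5.88% higher, beside 1.2% over all genes tested). It was the lysosomal protease Ctsd, by 0.68 (SE 0.10, adjusted p = 0.00481). The list summed to 1581 to 1831 CPM in the knockouts and 1360 to 1492 CPM in the controls. Ctsd held means of 436 and 272 CPM of these sums. Of 7 genes of TAM feedback on cytokine signalling, 1 rose and none fell (14.3% higher). Each of these shares rests on 1 gene.

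The other 7 lists had no gene past the threshold in edgeR. Over all genes tested, 10.5% were higher and 10.8% lower at an unadjusted p under 0.05, and DESeq2 called 3.67% higher and 4.59% lower. Whether the counts of these 7 lists differ from those shares was not tested. Of 18 genes of uptake signalling and cytoskeleton, 4 were higher and 1 lower at an unadjusted p under 0.05, and DESeq2 called 1. The kinase Src and the exchange factor Vav1 had log2 fold changes of 0.31 (adjusted p = 0.12) and 1.05 (0.107). Of 12 genes that flip phosphatidylserine across the membrane, 1 was higher and 2 lower without adjustment, and DESeq2 called 2 lower. Atp11b, a flippase that keeps phosphatidylserine inside, had a log2 fold change of -0.37 (adjusted p = 0.0646), and its 4 knockout values lay below the 4 controls. This held for 5.78% of all genes tested.

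Of 13 genes of lipid handling after uptake, 1 was higher and 2 lower without adjustment, and DESeq2 called 0. Abca1, a cholesterol exporter, and Npc1, a lysosomal cholesterol transporter, had log2 fold changes of -0.30 (adjusted p = 0.144) and 0.36 (0.159). Of 12 other integrin chains, 2 were higher and 0 lower without adjustment, and DESeq2 called 1. Itga9 and Itga5 were at 0.57 (0.0888) and 0.70 (0.129). Of 11 genes of vitamin K dependent carboxylation, the modification that lets Gas6 and protein S bind membranes, 1 was higher and 1 lower without adjustment, and DESeq2 called 0. Ggcx, the carboxylase, was at -0.28 (0.189) and F2r, the thrombin receptor, at 0.36 (0.22).

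Of 5 other MerTK ligands and TAM sheddases, 1 was lower and 0 higher without adjustment, and DESeq2 called 0. Adam17, a protease that cuts MerTK from the cell surface, had a log2 fold change of -0.24 (adjusted p = 0.149), and Tub, a bridging ligand of MerTK, of -0.15 (0.347). Of 3 do-not-eat-me signals, 1 was higher without adjustment and DESeq2 called 0. Cd47, which holds phagocytes back, was at 0.27 (0.166) and its receptor Sirpa at 0.14 (0.389).

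Control 4 bears on several of the named genes in these 7 lists. Without it Src, Npc1, Itga9, F2r and Cd47 passed as higher (edgeR adjusted p of 0.00723, 0.0113, 0.0242, 0.0166 and 0.0384), and Atp11b and Ggcx passed as lower (0.0119 and 0.0475), in a fit where 10.5% of all genes were called higher and 8.18% lower.

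**Figure D5:**
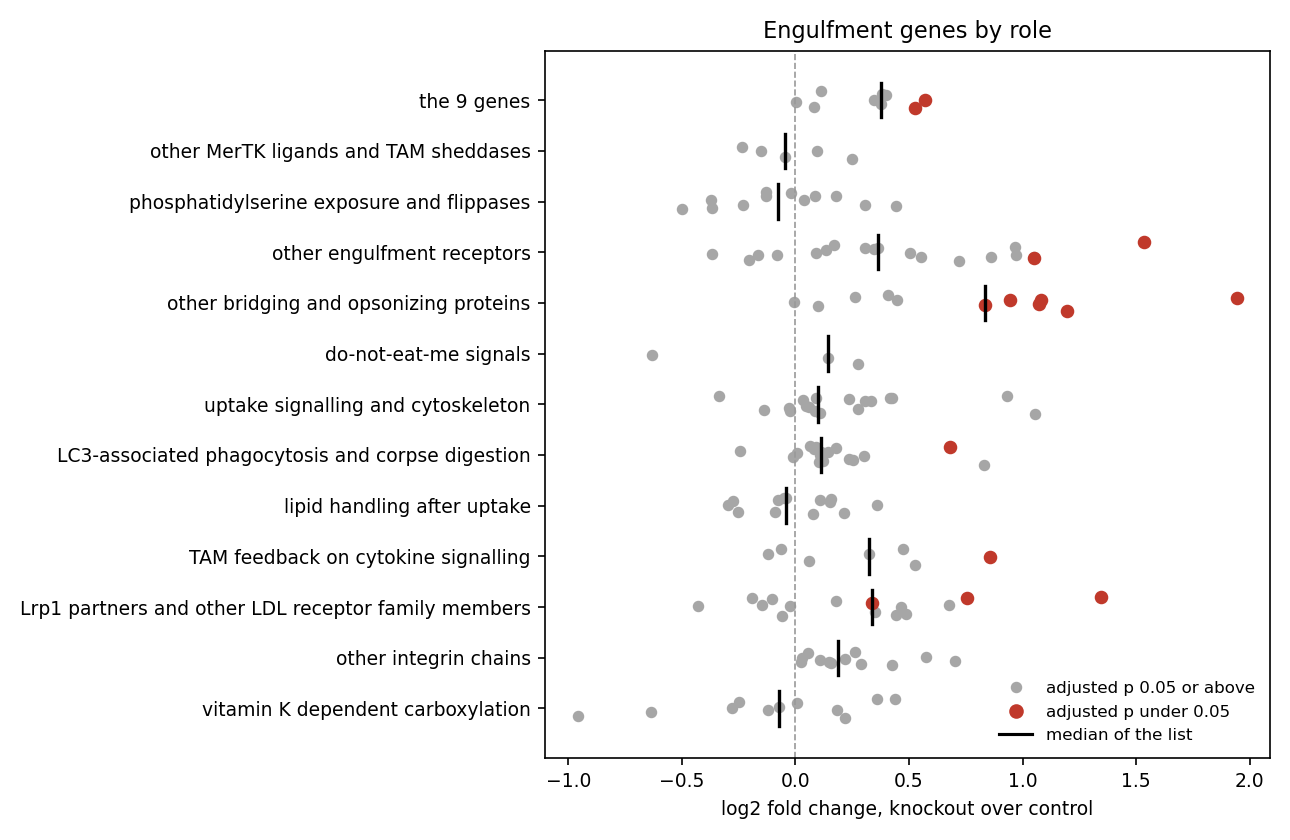
Log2 fold change of knockout over control for the 9 genes and for each engulfment list, with 1 point per tested gene, red where the edgeR adjusted p is under 0.05, and a black bar at the median of the list. Red points lie on the positive side, and 6 of the 13 outside the 9 genes belong to the bridging and opsonizing proteins.

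Markers of microglia, reactive glia and astrocytes were, like Axl and Pros1, apart between the groups in their summed CPM. Of 21 genes of microglia and macrophages, 8 rose and none fell. As for each list here, the shares over all genes tested were 1.2% higher and 1.35% lower. The microglial list median was 0.65, and its CPM summed to 254 to 325 in the knockouts and 147 to 223 in the controls. C1qa, C1qb and C1qc are among the 8 microglial genes that rose and were also counted among the bridging proteins, so the 2 counts are not separate. Of the 21, 19 had a log2 fold change above 0, the smallest being 0.13 for Siglech and 0.027 for P2ry12. The 2 below 0 were Mrc1 at -0.40 and Gpr34 at -0.077. Of 15 genes of reactive glia, 12 rose and none fell (median 0.80), with sums of 1064 to 1455 CPM against 688 to 801 CPM. A2m is among these 12 and was also counted among the partners of Lrp1. Of 6 astrocyte genes 1 rose and none fell (median 0.42), with sums of 518 to 604 CPM against 395 to 468 CPM. Most of the astrocyte sum was Aldoc, the gene that rose, with means of 463 CPM in the knockouts and 336 CPM in the controls. S100b, the 1 astrocyte gene below 0, had a log2 fold change of -0.77 (edgeR adjusted p = 0.069). Gfap had one of 0.28 (0.208), and its groups overlapped. Among the knockouts, the lowest sum was in knockout 2 for microglia and reactive glia, as for Axl and Pros1, and in knockout 1 for astrocytes. Among the controls, microglial sums were 223, 180, 150 and 147 CPM in controls 1 to 4, lowest in control 4, where Axl was highest. Reactive glia sums were 801, 688, 699 and 768 CPM, lowest in control 2, as Axl and Pros1 were. Astrocyte sums were 448, 406, 395 and 468 CPM, highest in control 4, as Axl was. The part of these cells in the result was not tested.

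The summed CPM of markers of the pigment epithelium and of Müller glia overlapped between groups. Of 19 pigment epithelium genes 2 rose and none fell (median 0.49), beside 1.2% higher and 1.35% lower over all genes tested. At an edgeR unadjusted p under 0.05, 8 were higher and 0 lower, beside 10.5% and 10.8% over all genes tested. Of the 19, 13 had a log2 fold change above 0, among them Rgr, Slc16a8, Rpe65, Stra6, Ttr and Lrat at 0.89 to 1.06. The other 6, Mlana, Pmel, Slc45a2, Tyrp1, Dct and Rrh, were at -0.86 to -0.11. The sum over all 19 was 380, 324, 239 and 178 CPM in controls 1 to 4 and 255, 443, 445 and 446 CPM in knockouts 1 to 4. None of the 19 was at 0 in all libraries. Among the knockouts, Mertk, Itgb5, Itgav and the pigment epithelium sum were all lowest in knockout 1. Among the controls, Mertk and Itgb5 were highest in control 1, as the sum was. Both were lowest in control 3, whereas the sum was lowest in control 4, where Itgav was highest. Of 15 Müller glia genes 1 rose and none fell (median 0.17), with sums of 4612 to 6235 CPM in the knockouts and 4484 to 5415 CPM in the controls. Of 12 markers of blood-borne lymphocytes and neutrophils, 9 stayed under 10 counts in every library. Endothelial markers had sums of 303 to 328 CPM in the knockouts and 223 to 311 CPM in the controls (1 of 12 rose, none fell), and red blood cell markers of 1.68 to 4.03 CPM against 10.1 to 14.5 CPM (4 of 4 tested fell). The part of these cells was not tested either.

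The genes whose profiles over the 8 libraries came nearest to each TAM receptor were sought among the 14682 other genes with a mean of at least 1 CPM. The measure was the root mean square difference of log2 CPM after centring each gene on its own mean. Among the 3 nearest to Axl were the collagen-modifying enzyme Plod1 (0.065) and Klhl29 (0.081), beside an SD of 0.36 for Axl itself. Their log2 fold changes of 0.54 and 0.52 follow from the choice by likeness to Axl and are given without a test. Nearest to Mertk were Vat1l (0.077), the ERK phosphatase Dusp6 (0.084) and the matrix protease Mmp14 (0.087), and nearest to Tyro3, which varied little (SD 0.12), were Ppp1r15b, Hif1an and Coa7 (0.017 to 0.037).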

How the data were processed

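Polyadenylated RNA of 8 retina libraries was sequenced. Names of fastp, HISAT2, HTSeq and build mm10 stand in the submitters' processing notes. Versions, annotation and strand setting are not stated in the sources used here. The authors deposited whole read counts per gene, not normalized, and FPKM values, which equal the counts divided by the library total and a fixed gene length. Columns were matched to samples by title.

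The counts were fitted with edgeR 4.0.16 in R 4.3.3: TMM factors, filterByExpr (minimum count 10, minimum total 15), a quasi-likelihood test of knockout against control without covariates, and Benjamini-Hochberg adjustment over all tested genes (threshold 0.05). The SE was taken as the size of the log2 fold change over the root of F, and the 95% interval uses the test's degrees of freedom. The test was checked on simulated data. Alternatives used DESeq2 1.42.0 and limma 3.58.1, with log2(FPKM + 1) and log2(FPKM + 0.1) as pseudocounts. One count is 0.028 to 0.0314 CPM, and spreads do not cover PCR duplicates.

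The members and lists were chosen with earlier results of these data known. Named are all members, up to 4 called genes per pathway list or otherwise the 2 with the smallest p, and the 3 nearest profiles per TAM receptor. A few genes that this rule selects are not reported here. Positions and promoters come from RefSeq (GRCm38.p6), with 9 of 9 genes matched by Entrez identifier and by symbol, and exon overlaps from GENCODE M21.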

Additional observations from a re-analysis of the deposited data

Results flagged for a closer look

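In 88 groups of 4 libraries, 5 had 1 library far from the other 3 by Dixon's criterion, which chance gives for about 1 in 20 groups, and 4 of the 5 are given here. Itgb5 stood at 40.4 CPM in knockout 1, beside 49.4 to 51.0 CPM in the other knockouts. The Tyro3 share of the TAM receptor FPKM sum was 45.2% in knockout 2, beside 39.4% to 40.1% in the others. Itgam stood at 2.77 CPM in control 3, beside 4.02 to 4.20 CPM, and Itga9 at 6.19 CPM in control 2, beside 8.43 to 8.88 CPM in the other controls.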

How the results depend on the processing

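The number of the 9 genes called was 2 in the main analysis (Axl and Pros1) and also 2 with RLE factors, library totals, no filter, the stricter filter, robust dispersions, limma-voom and the replicate block. It was 4 with DESeq2, 0 in both limma-trend fits to FPKM (6 at an unadjusted p under 0.05 in each), and 0 to 5 with a library left out. Chosen after seeing the data, leaving out the 3 lens-rich libraries gave 0 (2 unadjusted) and the lens covariate 0 (5 unadjusted). Over all genes, 430 were called in the main analysis, 690 without a filter, 1392 with DESeq2, 228 with log2(FPKM + 1), 108 to 3209 with a library left out, 15 without the lens-rich libraries and 264 with the lens covariate. With library totals 207 were higher and 131 lower, in place of 203 and 227. Engulfment pathway genes called numbered 13 in the main analysis, 24 with DESeq2, 5 to 39 with a library left out and 1 without the lens-rich libraries. The log2 fold change of Tyro3 turned sign with RLE factors (-0.0036), the stricter filter (-0.0013), DESeq2 (-0.0035) and some left-out libraries (-0.073 to 0.057). Nothing in the labels says that the title numbers pair libraries. Same-numbered deviations correlated at 0.21, -0.041, 0.12 and 0.0063, and not every library correlated best with its own number. The largest correlation, 0.24, was between knockout 3 and control 2. Both of these were lens-rich, so the correlations cannot show whether the numbers pair libraries. With the number as a replicate block, 228 genes were called over all, and the calls of Axl and Pros1 held.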

Other observations

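Bridging and integrin genes can be set against each other within a library, per length. The ratio of Mfge8 to Gas6 FPKM was 1.07 to 1.36 in the controls and 1.33 to 1.64 in the knockouts, with overlap at the edge. The ratio of the integrin chains Itgb5 to Itgav was 2.00 to 3.00 in the controls and 2.51 to 2.83 in the knockouts. The ratio of Axl to Mertk was 1.72 to 2.39 in the controls and 1.84 to 2.79 in the knockouts, so both receptors overlapped in proportion. These ratios were not tested.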
